A study of Mus musculus with 2 samples.

Results

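The collagen chain genes were the 44 gene symbols of the deposited tables that consist of Col, a number, the letter a and a second number, out of 20211 symbols. RNA had been sequenced from cultured primary pericytes (PCs), the perivascular cells of the mouse aorta, with 1 library from wild-type (WT) cells and 1 from Kai1 KO cells (Kai1-/-), both on the C57BL/6 background. Kai1 is Cd82, which encodes a tetraspanin of the cell membrane. Both cultures grew in DMEM with serum, and the C57BL/6 mice bought for the study were adults of either sex. No source used here gives the age of the mice, or the number of animals or cultures, behind a library. Each gene had 1 RPKM value per library, a read count corrected for transcript length and for the number of mapped reads, so that levels of different genes can be set side by side within a library. The column names are those of Cuffdiff, which can also rescale libraries, and whether it did so here is not given in the sources used here. With 1 library per genotype there was no replicate error and no test, and a difference between the libraries cannot be told apart from one between animals, cultures or preparations. Log2 ratios are Kai1-/- over WT, taken after 0.1 RPKM was added to both values, so for weakly expressed genes they come out smaller than the plain ratio.

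Collagens are the main structural proteins of the vessel wall. Each molecule is built from 3 alpha chains wound into a triple helix, which requires a glycine in each triplet of residues (Gly-X-Y), and each chain has a gene of its own. Fibrillar collagens form the cross-striated fibrils that carry tension, network collagens form sheets such as the basement membrane, and FACIT collagens sit on the surface of fibrils. Beaded-filament collagen VI forms a microfibril close to the cell surface, multiplexins lie in basement membranes, and transmembrane collagens stay anchored in the cell. Mural cells and fibroblasts of the aorta are known as main producers of this matrix.

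The repeat behind these classes is shown for 4 chains whose genes are described further below. The coding sequences were read from NCBI37, the build that the authors used, by the GENCODE M1 gene models, and capitals mark the glycine codons. The stretch of Col1a2, a fibrillar chain, is exon 8 of 52, at chr6:4465481-4465534 (plus strand). That of Col6a1, a beaded-filament chain, is exon 15 of 35, at chr10:76180540-76180602 (minus strand). That of Col8a1, a network chain, lies in exon 4 of 4, at chr16:57628143-57628205 (minus strand), and capitals there mark the glycine codons that open a triplet. That of Col4a1, a basement membrane chain, runs from exon 7 to exon 9 of 52, within chr8:11244513-11245237 (minus strand), across a place where the repeat is broken.
Col1a2: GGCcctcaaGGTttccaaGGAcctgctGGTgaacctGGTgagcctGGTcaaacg
Col6a1: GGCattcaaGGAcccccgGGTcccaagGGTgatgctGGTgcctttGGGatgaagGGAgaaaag
Col8a1: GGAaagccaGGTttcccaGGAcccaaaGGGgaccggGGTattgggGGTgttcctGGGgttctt
Col4a1: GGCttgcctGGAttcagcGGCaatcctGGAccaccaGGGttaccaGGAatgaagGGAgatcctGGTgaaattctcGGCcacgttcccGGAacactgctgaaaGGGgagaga

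The stretches of the first 3 chains were taken from inside an unbroken run of triplets, so neighbouring marked codons there are separated by 2 codons throughout. In Col4a1, 8 triplets in this spacing were followed by 2 gaps of 3 codons and 1 gap of 4. Over the whole coding sequence, the longest unbroken run of triplets had 337 to 344 triplets in the 8 fibrillar chains that averaged at least 1 RPKM. It had 40 triplets in Col4a1, 66 in Col4a2, 87 in both Col6a1 and Col6a2, 45 in Col6a3 and 61 in Col8a1. Exon lengths inside this run were also read. Of the 42 exons of Col1a2 that lie wholly inside it, 23 had 54 bases. Such exons numbered 3 of 14 in Col6a1, but 11 of 17 in the FACIT gene Col9a1. Every exon in the run was a multiple of 9 bases long in all 11 fibrillar genes. This was not particular to them, since it also held for all 14 in Col6a1, 13 in Col6a2 and 6 in Col4a1. It held for 3 of 5 in Col4a5 and 15 of 17 in Col9a1. Col8a1 has 2 coding exons, of which the longer holds 1904 coding bases.

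Both libraries had a few features that touch every value below. The targeted gene Cd82 stood at 12.8 RPKM in WT and 2.62 RPKM in Kai1-/-. The Y-linked gene Ddx3y stood at 6.56 RPKM in WT and was listed at 0 in Kai1-/-, so that sex and genotype cannot be told apart. From the steps of low values, the libraries hold an estimated 29500000 reads (WT) and 26800000 reads (Kai1-/-). The RPKM values summed to 884463 in WT and 1238193 in Kai1-/-. The median log2 ratio of the 10068 genes that averaged at least 1 RPKM was 0.08 as deposited, and -0.40 with both libraries scaled to the same sum. Directions that turn under this scaling or under scaling to Gapdh are named where they occur.

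Of the 44 collagen chain genes, 23 averaged at least 1 RPKM over both libraries and are called expressed below. In the Kai1-/- library 8 of these 23 were more than 2-fold lower (34.8%), 5 were more than 2-fold higher (21.7%) and 10 were neither. Among all 10068 genes, 7.81% were lower by this measure and 7.98% higher. The size of the log2 ratio, regardless of its sign, had a median of 1.06 over the 23 collagen genes and 0.43 over all genes. The signed log2 ratio of the collagen genes ranged from -1.68 to 1.97 with a median of -0.54. Collagen transcripts are long, with a median of 6338 bases against 2865 for all genes with a known length. Of the 2634 genes with a transcript at least as long as the shortest of the 23, which has 4100 bases, 6.95% were lower by over 2-fold and 5.13% higher.

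**Figure D1:**
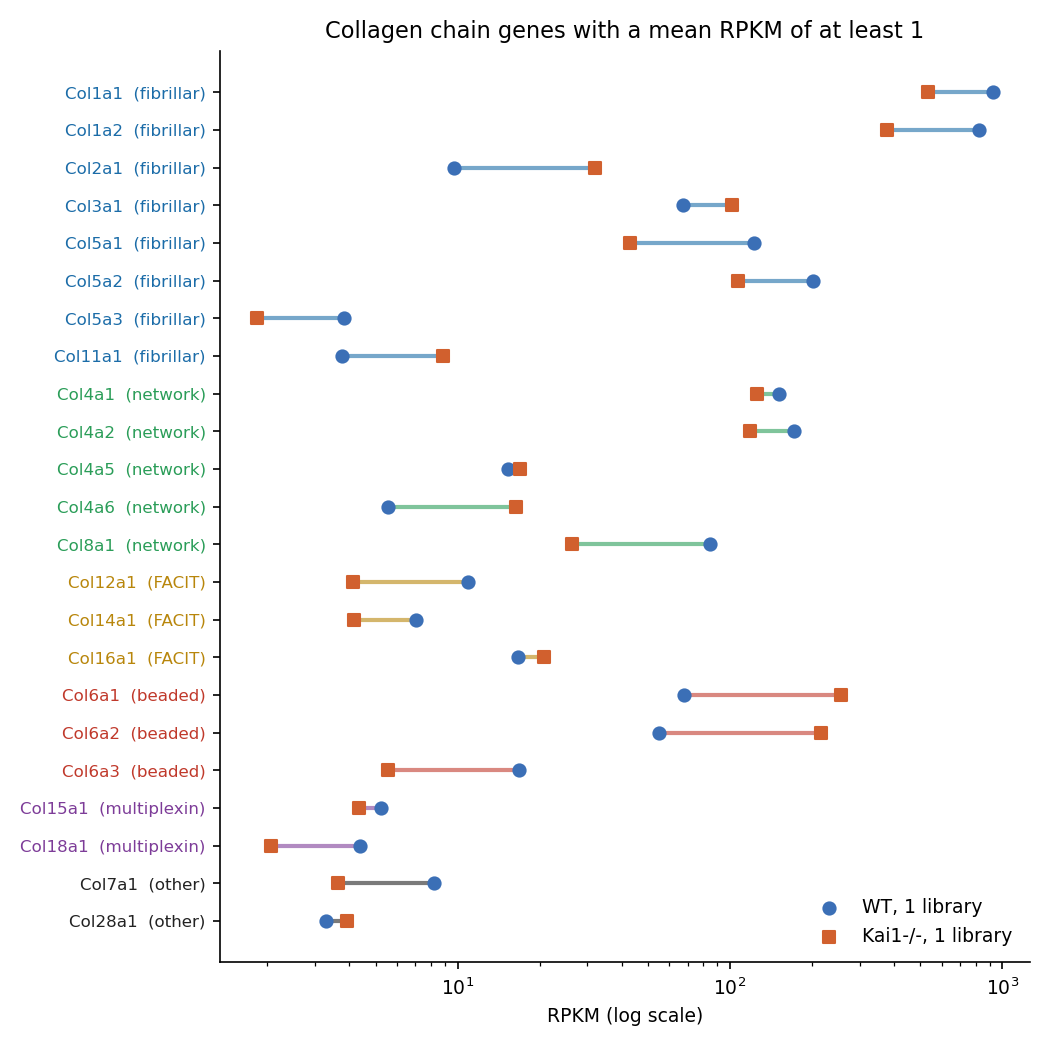
RPKM on a log scale of the 23 expressed collagen chain genes, by class, with a circle for the WT library and a square for the Kai1-/- library, joined by a line. Col1a1 and Col1a2 are the highest in both libraries, and the squares of Col6a1 and Col6a2 lie to the right of their circles while that of Col6a3 lies to the left.

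**Figure D2:**
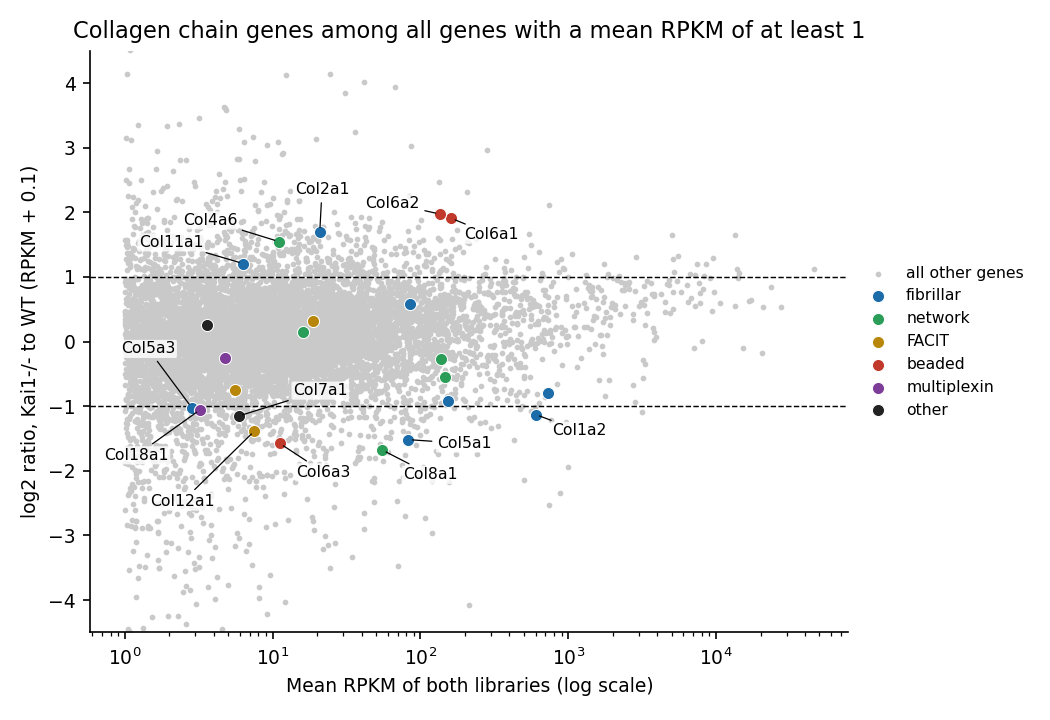
log2 ratio of Kai1-/- to WT against the mean RPKM on a log scale, with each gene a point, collagen chain genes coloured by class and dashed lines at a 2-fold change. The 13 named genes lie beyond the dashed lines, 8 below and 5 above, and 34 of all genes lie outside the range drawn.

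The fibrillar collagens made up most of the collagen transcripts. Their summed RPKM was 2158 in WT cells against 1204 in Kai1-/- cells, or 77.5% and 59.4% of the sum over all 44 genes. Of the 11 fibrillar genes 8 were expressed, of which 3 were more than 2-fold lower, 2 more than 2-fold higher and 3 neither. The shares of all genes were 7.81% lower and 7.98% higher. The median log2 ratio of the 8 fibrillar genes was -0.85.

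Col1a1 and Col1a2 encode the chains of collagen I, the most abundant collagen of the body. Col1a1, on chromosome 11 from 94797538 to 94814356 (gene coordinates here and below are on NCBI37), had 924 RPKM in WT cells against 534 in Kai1-/- cells, with a log2 ratio of -0.79. Col1a2, on chromosome 6 from 4454814 to 4491543, had 824 and 377, a log2 ratio of -1.13. They stood at ranks 152 and 164 of all symbols in WT PCs, and at ranks 256 and 339 in Kai1-/- PCs. Both were thus lower in the Kai1-/- library, and only Col1a2 passed the 2-fold line as deposited. With the libraries scaled to Gapdh or to the same sum, Col1a1 passed it too.

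Collagen V starts and limits the growth of collagen I fibrils. Its gene Col5a1 had 123 RPKM in WT cells against 42.8 in Kai1-/- cells (34.9% of the WT level), with a log2 ratio of -1.52. Col5a2 had 201 and 107, a log2 ratio of -0.91. The less abundant chain Col5a3 had 3.83 and 1.84, a log2 ratio of -1.02, whose interval for counting error alone, from -1.22 to -0.82, includes the 2-fold line. All 3 chain genes of collagen V were lower in the Kai1-/- library.

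The remaining expressed fibrillar genes differed in the opposite direction. Col3a1, the gene of a homotrimeric collagen of distensible tissues such as the vessel wall, had 67.5 RPKM in WT cells against 101 in Kai1-/- cells, with a log2 ratio of 0.59, which was 0.09 scaled to Gapdh and 0.10 with equal sums. Col2a1, the gene of the main fibrillar collagen of cartilage, had 9.74 and 31.9, a log2 ratio of 1.70. Col11a1, whose product joins collagen II in cartilage fibrils, had 3.78 and 8.85, a log2 ratio of 1.21, which was within 2-fold with the libraries scaled to Gapdh or to the same sum. Of the 6 chondrocyte markers, Acan, Hapln1 and Matn1 were listed at 0 in both libraries, Comp had 0.531 and 0.101, Matn3 had 0.324 and 0.253, and Sox9 had 8.36 in WT cells against 9.80 in Kai1-/- cells, a ratio that was below 1 with the libraries scaled to Gapdh or to the same sum. Col11a2, the other cartilage-type fibrillar gene, was below the filter, with 0.343 and 0.249. The part of chondrocyte-like expression in the values of Col2a1 and Col11a1 was not tested.

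**Figure D3:**
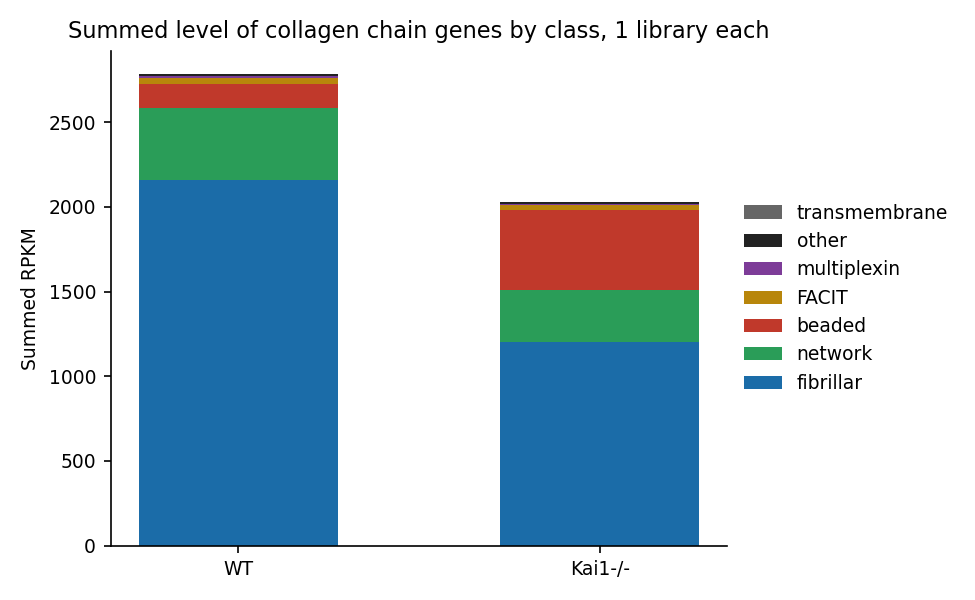
Summed RPKM of the 44 collagen chain genes in the WT library and the Kai1-/- library, stacked by class from 0. The fibrillar part is 2158 in WT and 1204 in Kai1-/-, and the beaded part is 140 and 477.

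The chains of collagen VI differed in opposite directions. Col6a1, on chromosome 10 from 76171537 to 76188913, had 68.1 RPKM in WT cells against 256 in Kai1-/- cells, with a log2 ratio of 1.91. Col6a2, on the same chromosome from 76058507 to 76086375, had 54.7 and 215, a log2 ratio of 1.97. The log2 ratio was lower than that of Col6a1 in 98.9% of all genes. Col6a3, on chromosome 1 from 92663435 to 92740529, had 16.8 RPKM in WT cells against 5.57 in Kai1-/- cells, a log2 ratio of -1.58.

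Collagen VI is assembled from 1 chain each of these 3 genes, and Col6a3 encodes the largest of them. The ratio of their RPKM within a library does not depend on how the library was scaled. The RPKM of Col6a1 was 1.24 times that of Col6a2 in WT PCs and 1.19 times in Kai1-/- PCs. It was 4.05 times that of Col6a3 in WT PCs and 45.9 times in Kai1-/- PCs, an 11.3-fold difference between the libraries. The estimated reads behind Col6a3 were 4250 and 1280, and counting error alone gave its log2 ratio a 95% interval from -1.67 to -1.49. The alternative collagen VI chains, which can take the place of the Col6a3 product, were near 0. Col6a4 had 0.00466 RPKM in WT cells against 0.0413 in Kai1-/- cells, and Col6a5 and Col6a6 were listed at 0 in WT PCs with 0.0575 and 0.0596 in Kai1-/- PCs. The summed RPKM of the 6 beaded-filament genes was 140 in WT cells against 477 in Kai1-/- cells, or 5.02% and 23.5% of all collagen. With the libraries scaled to the same sum, this class was 2.44 times as high in Kai1-/- PCs as in WT PCs, against 3.41 times as deposited.

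Col6a1 and Col6a2 lie on the same strand with 85.2 kb between them and 0 annotated protein-coding genes wholly within that gap, and Col6a3 lies on another chromosome. The promoter windows of the pair that was higher are shown as RefSeq gives them (GRCm38.p6), from upstream of the transcript start to just inside the transcript. The window of Col6a1 is chr10:76725995-76726294 and that of Col6a2 is chr10:76623355-76623654, both on the minus strand. Capitals mark the motifs searched on both strands, which were the CCAAT box, the GC box with the letters GGGCGG, and the TATA box with the letters TATAAA, each also as its reverse complement.
Col6a1: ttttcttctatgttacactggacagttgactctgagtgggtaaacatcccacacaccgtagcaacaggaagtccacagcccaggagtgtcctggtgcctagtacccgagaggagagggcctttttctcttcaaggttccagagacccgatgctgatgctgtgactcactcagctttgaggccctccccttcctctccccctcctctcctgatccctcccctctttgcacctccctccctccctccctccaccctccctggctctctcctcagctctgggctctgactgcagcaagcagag
Col6a2: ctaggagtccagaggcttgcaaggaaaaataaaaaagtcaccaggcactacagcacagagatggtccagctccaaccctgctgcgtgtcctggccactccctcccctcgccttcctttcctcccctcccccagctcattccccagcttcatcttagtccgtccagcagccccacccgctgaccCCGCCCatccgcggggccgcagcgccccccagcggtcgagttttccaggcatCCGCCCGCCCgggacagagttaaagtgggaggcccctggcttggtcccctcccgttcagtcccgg

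The Col6a1 window held none of the 3 motifs, and the Col6a2 window held 3 copies of GGGCGG, all as the reverse complement, of which a pair overlapped. At the second RefSeq start of Col6a2 the window held 1. Over 32851 promoter windows of the same length, 37.4% held CCAAT, 35.7% GGGCGG and 13.6% TATAAA. RefSeq windows were matched for 18 of the 23 genes, of which 9 held CCAAT, 13 GGGCGG and 1, Col3a1, TATAAA. A gene was counted if any of its windows held the motif, and Col6a2 and Col18a1 have more than 1. The shares over all windows are per window, so the measures are not alike. Such matches describe letters, not binding.

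The network collagens had a summed RPKM of 430 in WT cells against 303 in Kai1-/- cells, or 15.4% and 15.0% of all collagen. Of 9 genes 5 were expressed, of which 1 was more than 2-fold lower, 1 more than 2-fold higher and 3 neither. Among all genes, 7.81% were lower and 7.98% higher by this measure. Col4a1 and Col4a2 encode the chains of the common collagen IV of basement membranes. Col4a1 had 151 RPKM in WT cells against 125 in Kai1-/- cells, with a log2 ratio of -0.27. Col4a2 had 173 and 118, a log2 ratio of -0.54. Both were lower by less than 2-fold as deposited, and Col4a2 passed the line with the libraries scaled to Gapdh or to the same sum.

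These genes lie head to head on chromosome 8, Col4a1 from 11198423 to 11312826 on the minus strand and Col4a2 from 11312805 to 11449287 on the plus strand, and share 22 bases at their starts. The RefSeq windows of the starts, on GRCm38.p6, share 78 bases. They are shown because they overlap, with the same motifs in capitals. The window of Col4a1 is chr8:11312777-11313076 on the minus strand and that of Col4a2 is chr8:11312555-11312854 on the plus strand.
Col4a1: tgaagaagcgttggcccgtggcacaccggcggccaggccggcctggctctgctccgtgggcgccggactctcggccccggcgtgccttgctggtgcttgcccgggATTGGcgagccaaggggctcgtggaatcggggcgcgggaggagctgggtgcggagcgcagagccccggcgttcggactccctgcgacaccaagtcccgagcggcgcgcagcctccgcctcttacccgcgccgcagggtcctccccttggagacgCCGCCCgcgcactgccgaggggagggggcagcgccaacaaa
Col4a2: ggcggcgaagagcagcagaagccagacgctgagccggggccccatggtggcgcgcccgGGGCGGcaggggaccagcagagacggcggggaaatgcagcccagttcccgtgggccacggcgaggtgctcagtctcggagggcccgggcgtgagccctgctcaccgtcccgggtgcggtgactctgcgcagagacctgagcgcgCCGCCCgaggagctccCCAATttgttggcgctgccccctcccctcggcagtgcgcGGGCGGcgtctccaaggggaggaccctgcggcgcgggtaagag

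The Col4a1 window held 1 copy of CCAAT and 1 of GGGCGG, and the Col4a2 window held 1 and 3. The GGGCGG copy of the Col4a1 window lies in the bases that the windows share, so it is also counted among the 3 of Col4a2. The RPKM of Col4a1 was 0.875 times that of Col4a2 in WT PCs and 1.06 times in Kai1-/- PCs, a 1.21-fold difference between the libraries. The second head-to-head pair with measurable levels, Col4a5 and Col4a6 on the X chromosome, differed more in its ratio. These genes encode the chains of the other collagen IV networks, and their starts lie 1309 bases apart. Col4a5 had 15.3 RPKM in WT cells against 16.9 in Kai1-/- cells, with a log2 ratio of 0.15, which was below 0 with the libraries scaled to Gapdh or to the same sum. Col4a6 had 5.55 and 16.4, a log2 ratio of 1.55, and for this X-linked pair the sex difference between the libraries named above cannot be told apart from genotype. Col4a5 thus exceeded Col4a6 by a factor of 2.76 in WT cells and of 1.03 in Kai1-/- cells. The third pair, Col4a3 and Col4a4, which encode chains of the kidney and lung basement membrane, had an RPKM of 0.0522 and 0.0801 in WT PCs and was listed at 0 in Kai1-/- PCs.

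Col8a1 encodes a short-chain network collagen made by vascular smooth muscle and endothelial cells. On chromosome 16 from 57624371 to 57754850, it had 84.2 RPKM in WT cells against 26.2 in Kai1-/- cells, 31.2% of the WT level. Its log2 ratio of -1.68 was the lowest of the 23 genes, with an interval from -1.73 to -1.62 for counting error alone, and 3.3% of all genes had a lower one. Its possible partner Col8a2 had 0.0245 in WT PCs and was listed at 0 in Kai1-/- PCs. Col10a1, the related short-chain collagen of hypertrophic cartilage, had 0.853 in WT cells against 0.166 in Kai1-/- cells.

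**Figure D4:**
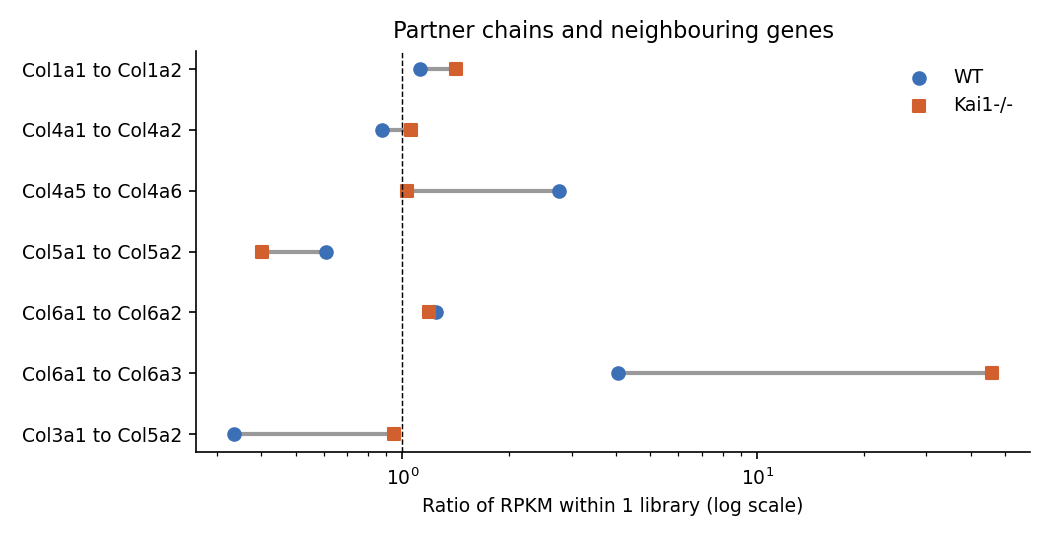
Ratio of the RPKM of 2 collagen chain genes within a library on a log scale, with a circle for WT, a square for Kai1-/- and a dashed line at equal levels. Col6a1 to Col6a2 stays near 1.2 in both libraries, while Col6a1 to Col6a3 is 4.05 in WT and 45.9 in Kai1-/-.

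Ratios were also taken for other partner chains. Collagen I is usually assembled from 2 products of Col1a1 and 1 of Col1a2, and the RPKM of Col1a1 was 1.12 times that of Col1a2 in WT PCs and 1.42 times in Kai1-/- PCs. Col5a1 to Col5a2 was 0.611 in WT cells against 0.401 in Kai1-/- cells. Col3a1 and Col5a2, which do not form a joint molecule, are neighbours on chromosome 1 with 24.6 kb between them. Their ratio was 0.336 in WT cells against 0.95 in Kai1-/- cells, since Col3a1 was higher and Col5a2 lower in Kai1-/- PCs.

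For comparison with these pairs, the window of Col1a2, the lower of the collagen I genes in both libraries, is chr6:4505368-4505667 on the plus strand of GRCm38.p6.
Col1a2: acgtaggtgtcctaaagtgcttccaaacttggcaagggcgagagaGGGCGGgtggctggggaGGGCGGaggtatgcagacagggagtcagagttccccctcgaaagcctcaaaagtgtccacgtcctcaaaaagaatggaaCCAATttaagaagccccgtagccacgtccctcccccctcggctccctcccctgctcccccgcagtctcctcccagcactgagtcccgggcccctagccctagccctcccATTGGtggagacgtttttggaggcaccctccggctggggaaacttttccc

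This window held 2 copies of CCAAT, 1 on each strand, and 2 of GGGCGG.

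The FACIT collagens had a summed RPKM of 35.4 in WT cells against 29.6 in Kai1-/- cells, and 3 of 9 genes were expressed. Col12a1, a chain that coats collagen I fibrils and is known from tissues under load, had 10.9 and 4.12, a log2 ratio of -1.38. Col14a1, its close relative, had 7.02 and 4.15, a log2 ratio of -0.74. Col16a1, which is found near basement membranes and microfibrils, had 16.6 and 20.8, a log2 ratio of 0.32 that was below 0 with the libraries scaled to Gapdh or to the same sum. Of the 3 expressed genes of this class, 1 was thus more than 2-fold lower, beside 7.81% of all genes. The collagen IX chains Col9a2 and Col9a3, of the cartilage fibril surface, were below the filter, with 0.0133 and 0.0588 for Col9a2 and 0.255 and 0.311 for Col9a3.

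Both multiplexins were lower in the Kai1-/- library. Col18a1, whose product is the source of the angiogenesis inhibitor endostatin, had 4.39 RPKM in WT cells against 2.06 in Kai1-/- cells, with a log2 ratio of -1.06. Its estimated reads were 795 and 339, with an interval from -1.24 to -0.87 for counting error alone, which includes the 2-fold line. Col15a1 had 5.21 and 4.35, a log2 ratio of -0.26. Of the chains outside the 6 classes, Col7a1, the gene of the anchoring fibril below epithelia, had 8.19 and 3.63, a log2 ratio of -1.15. Col28a1 had 3.28 and 3.94, a log2 ratio of 0.25 that was below 0 with the libraries scaled to Gapdh or to the same sum. With a pseudocount of 1 RPKM, Col5a3, Col7a1 and Col18a1 were less than 2-fold lower.

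The remaining 21 collagen chain genes had a mean RPKM below 1, and Col10a1 was the only 1 of them to reach 0.5 in either library. Col9a1, Col13a1 and Col26a1 were listed at 0 in both. Another 7 were above 0 in WT PCs and listed at 0 in Kai1-/- PCs, namely Col4a3, Col4a4, Col8a2, Col19a1, Col23a1, Col24a1 and Col25a1. Their estimated reads in WT PCs ranged from about 1 for Col24a1 and Col25a1 to 18 for Col4a4. Col6a5 and Col6a6 were listed at 0 in WT PCs alone, with an estimated 14 and 11 reads in Kai1-/- PCs. The other 9 were above 0 in both. Of these, Col10a1 and Col20a1 (0.448 in WT cells against 0.141 in Kai1-/- cells) were more than 2-fold lower with 0.1 RPKM added. Without the filter, 1878 of all 20211 symbols were lower by this measure and 1205 higher. By the plain ratio Col27a1 was also past 2-fold, at 38.0% of WT. Col6a4, Col9a2 and Col17a1 were higher by the plain ratio, at 887%, 443% and 222% of WT. Their estimated reads in WT PCs were 0.995, 1.07 and 5.13. The 4 transmembrane collagen genes, among them Col17a1 of the hemidesmosome with 0.0323 and 0.0715, had a summed RPKM of 0.142 in WT cells against 0.0715 in Kai1-/- cells.

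Over all 44 genes the summed RPKM was 2783 in WT cells against 2028 in Kai1-/- cells, or 0.315% and 0.164% of the library sums. The order of the genes also differed. In WT PCs the 6 highest were Col1a1, Col1a2, Col5a2, Col4a2, Col4a1 and Col5a1. In Kai1-/- PCs they were Col1a1, Col1a2, Col6a1, Col6a2, Col4a1 and Col4a2. With no replicate libraries, how far neighbours in these orders differ beyond the spread between cultures is not known.

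The machinery that folds, processes and binds collagen was looked up in lists compiled from general knowledge. Among the chaperones and modifying enzymes of the endoplasmic reticulum, 15 of 18 genes were expressed and 0 of them differed by more than 2-fold, with a median log2 ratio of -0.21. Serpinh1, the collagen chaperone HSP47, had 462 RPKM in WT cells against 435 in Kai1-/- cells. P4hb, a subunit of prolyl 4-hydroxylase, had 328 and 384, and was lower in Kai1-/- cells with the libraries scaled to Gapdh or to the same sum. Of the genes for procollagen processing and cross-linking, 11 of 13 were expressed, of which 4 were more than 2-fold lower and 0 higher, beside 7.81% and 7.98% of all genes.

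Those 4 were Pcolce2, an enhancer of propeptide removal, and the lysyl oxidases Loxl1, Loxl2 and Loxl3, which cross-link collagen and elastin. Pcolce2 had 19.2 RPKM in WT cells against 4.68 in Kai1-/- cells, and Loxl1 had 101 and 47.3. Lox itself had 402 and 235, a log2 ratio of -0.77. Of the collagen receptors, 6 of 10 were expressed. The single expressed gene past 2-fold was Itga11, the alpha subunit of a receptor for collagen I, with 8.57 and 2.12. Among the collagenases and gelatinases, 3 of 6 were expressed, and Ctsk, a collagen-degrading cathepsin, had 35.1 and 10.8. Below the filter, Mmp13 had 1.83 in WT cells against 0.0151 in Kai1-/- cells, and the receptor gene Itga2 had 0.328 and 0.0279. Itga11 and Ctsk were each the single expressed gene of their list more than 2-fold lower, beside 7.81% of all genes. No gene of these 4 lists was more than 2-fold higher, against 7.98% of all genes.

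Markers of cell types were set beside these values. Of all genes, 7.81% were more than 2-fold lower. Of 10 mural markers, 7 were expressed, of which 4 were more than 2-fold lower. The summed RPKM of the 10 was 4646 in WT cells against 2977 in Kai1-/- cells. Those 4 were Myh11, Tagln, Cnn1 and Mcam. Acta2, the smooth muscle actin, had 3823 and 2580, Pdgfrb had 44.7 and 31.6, and Cspg4 had 15.4 and 8.27. Rgs5, a pericyte marker, was the only one of the 10 that was higher in Kai1-/- PCs. It was below the filter and near 0 in both libraries, with 0.0630 and 0.233. Of 7 fibroblast markers, 6 were expressed, of which 4 were more than 2-fold lower and Cd34 more than 2-fold higher, with a summed RPKM of 1373 and 587, nearly all of it Ly6a with 1354 and 569. The 8 endothelial markers summed to 1.29 in WT PCs and were all listed at 0 in Kai1-/- PCs. The 8 macrophage markers summed to 18.4 and 14.5, and of the 3 expressed ones Csf1r (11.7 and 2.66) and Lyz2 (3.44 and 1.09) were more than 2-fold lower and Cd14 (1.98 and 10.3) more than 2-fold higher. Of 10 epithelial markers only Krt19 was expressed, with 29.3 and 91.3, more than 2-fold higher, while Krt5 and Epcam were listed at 0 in both libraries. The 3 Schwann cell markers summed to 0.333 and 0.0799, and the 3 adipocyte markers to 10.6 and 4.53, nearly all of it Fabp4. The part of these cell types in the collagen values was not tested. In RNA from a whole culture, fewer cells of a type and less RNA per cell cannot be told apart.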

How the data were processed

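The authors sequenced RNA of primary aortic PCs, aligned the reads to mm9 with TopHat2 2.0.9 and Bowtie (the labels also list Cufflinks) and deposited 1 RPKM value per RefSeq gene and library. The strand setting and the read totals are not given in the sources used here. The members, classes and lists were chosen with earlier results of these data known.

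Each table has 20462 lines. The 38 lines that name no gene were dropped, and the 153 symbols found more than once were averaged, none of them a collagen chain gene. Log2 ratios used a pseudocount of 0.1 RPKM and a minimum mean RPKM of 1, and 2-fold was the line. All collagen chain genes past this minimum were named. Depth was estimated from whole-read steps in low RPKM values of genes with 1 annotated transcript over 800 bases. A multiple of the depth also gives whole reads, so a fit near the smallest depth that fitted well was taken. If Cuffdiff rescaled the libraries, the estimates are of scaled depths. The steps fitted within 0.15 of a read for 81.4% and 78.7% of the values, with 200 and 210 bases taken off each transcript length. Intervals are 95% Clopper-Pearson intervals on these reads, so they cover counting error only. Reads were computed with the longest annotated transcript of each gene, which makes them approximate.

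Of the 23 genes, 6 share exon bases with another annotated gene, at most 1.66% of its exon bases with any 1 of them. Triplet runs were counted in the longest complete coding sequence, with 1 transcript per gene. Col26a1 was matched to its older symbol Emid2. Alternatives covered the pseudocount, the filter, 4 scalings and repeated symbols. Python 3.11.15, numpy 2.4.6, pandas 2.3.3, scipy 1.17.1 and matplotlib 3.10.9 were used. RefSeq promoter windows were on GRCm38.p6, and no coordinates were converted between builds.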

Additional observations from a re-analysis of the deposited data

How the results depend on the processing

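No paired analysis was possible because there is a single library of each genotype. With a pseudocount of 1 RPKM, 5 collagen chain genes and 572 of all genes were more than 2-fold lower. With 0.1 RPKM these counts were 8 and 786. The medians of the FACIT and multiplexin classes were -0.64 and -0.52 with 1 RPKM. With the median of all genes set to 0, the median over the 23 collagen genes was -0.63, and the class medians were -0.93 (fibrillar), -0.35 (network), -0.82 (FACIT), 1.83 (beaded) and -0.74 (multiplexin). With equal upper quartiles these were -0.67, -0.98, -0.40, -0.87, 1.78 and -0.78. Scaled to Gapdh they were -1.04, -1.35, -0.77, -1.23, 1.41 and -1.14, with 1856 of all genes lower and 278 higher, and with equal sums -1.03, -1.34, -0.75, -1.21, 1.42 and -1.12, with 1779 lower and 257 higher. These shifts follow from the scaling. Under either of the last 2 scalings, 12 collagen genes lay below the 2-fold line and 4 above it, and Col4a5, Col16a1 and Col28a1 changed sign, as did P4hb, Sox9 and Scara3, checked after seeing the data. Without the filter, 11 of the 44 genes were lower and 5 higher, beside 1878 and 1205 of all genes. The medians were then -0.26 over all 44, -0.54 (network), -0.11 (FACIT) and 0.67 (beaded). With a mean RPKM of at least 5, 6 of 19 collagen chain genes were lower and 5 higher, beside 350 and 511 of all genes. How many of all genes passed that filter was not counted, so no share is given. No ratio of a gene past 2-fold changed sign under these alternatives. Without ribosomal protein genes in the sums, collagen made up 0.505% in WT PCs and 0.322% in Kai1-/- PCs. Depth limits little here, since the 23 genes had at least 390 estimated reads in WT PCs and 291 in Kai1-/- PCs.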

Other observations

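Outside the collagen family, 19 other genes in the tables encode an unbroken run of at least 20 Gly-X-Y triplets, a search chosen after the collagen values were seen. Of these, 7 averaged at least 1 RPKM. C1qtnf5, a secreted C1q-like protein, was the highest, with 217 RPKM in WT cells against 124 in Kai1-/- cells, a log2 ratio of -0.80. C1qtnf2 had 5.05 and 0.148, a log2 ratio of -4.37, and C1qtnf3 had 9.56 and 3.58, a log2 ratio of -1.39. Below the filter, C1qtnf7 had 1.45 in WT cells and was listed at 0 in Kai1-/- cells, and Emid1 had 0.987 and 0.109. Among scavenger receptor genes, Scara5 had 0.517 and 3.74, a log2 ratio of 2.64, and Scara3 had 15.7 and 20.6, a log2 ratio of 0.39 that was below 0 with the libraries scaled to Gapdh or to equal sums. Msr1, below the filter, had 0.187 in WT cells and was listed at 0 in Kai1-/- cells, and Marco was listed at 0 in both. Colec11, a collectin of innate immunity, had 0.486 and 2.09, a log2 ratio of 1.90, and Colec12, also a scavenger receptor, had 9.22 and 7.30, a log2 ratio of -0.33. Each value is from 1 library per genotype, with no replicate check.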
